A study of Mus musculus with 8 samples.

Results

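Chandelier cells (ChC) are inhibitory interneurons of the cortex, and the 63 cells described here are the labeled ChC of 2 mice. Each cell was collected into its own tube with its own reverse transcription primers, and libraries were prepared by batch, with 16 cells per batch. The members are the cells that the deposited table names ChC, less 1 cell without any count, and they make up 63 of the 126 cells with counts in the series. The other 63 are labeled Pv cells, most of which would be fast-spiking basket cells, and they serve as the comparison.

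A chandelier cell sends its axon to the axon initial segment of pyramidal neurons, the short stretch where the action potential starts, and forms there the vertical rows of synapses that gave the cell its name. It is born late in the medial ganglionic eminence and the adjoining preoptic region from progenitors that express the transcription factor Nkx2-1, releases GABA, and fires at high rates. Basket cells share the eminence and the fast firing but contact the soma and proximal dendrites of their targets.

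The study compared single cells to ask how well expression relations recur between small groups of cells. ChC were red fluorescent neurons of Nkx2.1-CreER; Ai14 mice, in which tamoxifen given at E17.5 (late embryonic life) activates the CreER made under Nkx2.1 control and so switches on the reporter. Pv cells were red fluorescent neurons of Pv-ires-Cre; Ai14 mice, where the parvalbumin locus drives Cre, so the level of Pvalb in that group follows from how it was marked. All mice were labeled as WT and female and were untreated otherwise, the tissue was frontal cortex, and labeled cells were picked by hand after slices had been dissociated. ChC batches 1 and 2 came from animal 1 at postnatal day 31, and batches 3 and 4 from animal 2 at day 32. Pv batches 5 and 6 came from animal 3 at day 29, and batches 7 and 8 from animal 4 at day 35. Each animal's batches shared a lane, and ChC and Pv cells were sequenced on different flow cells. Cell type, mouse line and flow cell therefore cannot be told apart, nor can animal, age and lane within ChC.

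Each RNA molecule carried a random tag before amplification, so that the values are counts of tags (UMI, unique molecular identifiers). ChC yielded 4588288 UMI and Pv cells 1937157. The ChC batches held 448121, 556405, 2460679 and 1123083 UMI from 16, 16, 16 and 15 cells, and the Pv batches held 392580, 430860, 316540 and 797177 UMI. A ChC cell held a median of 33244 UMI (lowest 903, highest 515374) on 6345 genes, and a Pv cell a median of 23248 UMI. Of 23335 gene names, 16531 had a count in any cell and 15671 in ChC. Levels below are counts of a gene per 1000000 UMI of a batch (CPM), scaled between batches by TMM (edgeR's trimmed mean of M values), in the order of batches 1 to 4 for ChC and 5 to 8 for Pv. The most abundant transcript stands for a gene; with transcripts summed instead, the mean ChC level of 17 named genes was over 1.5 times as high and more than 1 SD away, among them Nkx2-1 (1.71 times), Meg3 (2.29), Sox6 (2.54) and Satb1 (3.40).

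A property of the counts comes before all results. Once the cell total was allowed for, the cells of a ChC batch differed hardly more than counting noise, while the 4 batches differed widely. The median gene had a variance between cells of 1.00, 1.01, 0.984 and 1.02 times the counting noise in ChC batches 1 to 4. Over the 1077 genes with at least 50 UMI in every ChC batch, the variance beyond counting noise, relative to the squared level, had a median of 0.00206 between cells of a batch and 0.203 between the batches. The 95th percentiles were 0.0337 and 0.910.

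The neuropeptide gene Tac1, which encodes the precursor of substance P, shows this in single genes. It stood at 15.3, 2163, 0 and 4.40 CPM in the ChC batches and was found in 16 of 16 cells of batch 2, but in 3 of 16, 0 of 16 and 4 of 15 cells of the other batches. Among the 9 cells of batch 2 with at least 10000 UMI, it ranged only from 18.7 to 25.8 UMI per 10000. Adarb2, an RNA-editing family gene that marks interneurons of the caudal ganglionic eminence, stood at 23, 23.9, 26.4 and 1669 CPM. All 15 cells of batch 4 carried it, at 9.15 to 20.3 UMI per 10000 in the 14 cells with at least 10000 UMI. Batches 1 and 2, or 3 and 4, came from 1 animal, yet they too differed widely. Across genes, Pearson's r of log2(CPM + 1) was 0.389 and 0.495 between batches of the same animal and 0.377 to 0.430 between ChC batches of different animals, against 0.264 to 0.449 between ChC and Pv batches (genes are not independent replicates). What makes the cells of a batch alike was not tested, nor was whether each tag stems from the cell it is listed under, on which every count of cells with a gene depends. For all that follows the batch, not the cell, is the unit, and a share of cells says little beyond the level of their batches.

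**Figure D1:**
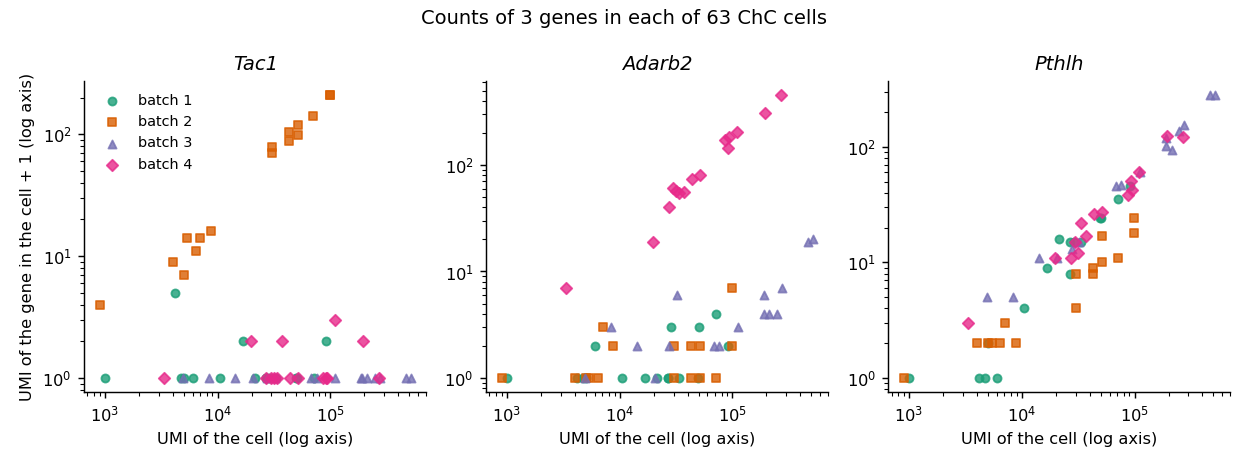
UMI of Tac1, Adarb2 and Pthlh in each of 63 ChC cells against the UMI of the cell (log axes, 1 added to the gene's UMI), with a color and shape for each batch. Tac1 lies high in all 16 cells of batch 2 and Adarb2 in all 15 cells of batch 4, whereas Pthlh rises with the cell total in all 4 batches.

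**Figure D2:**
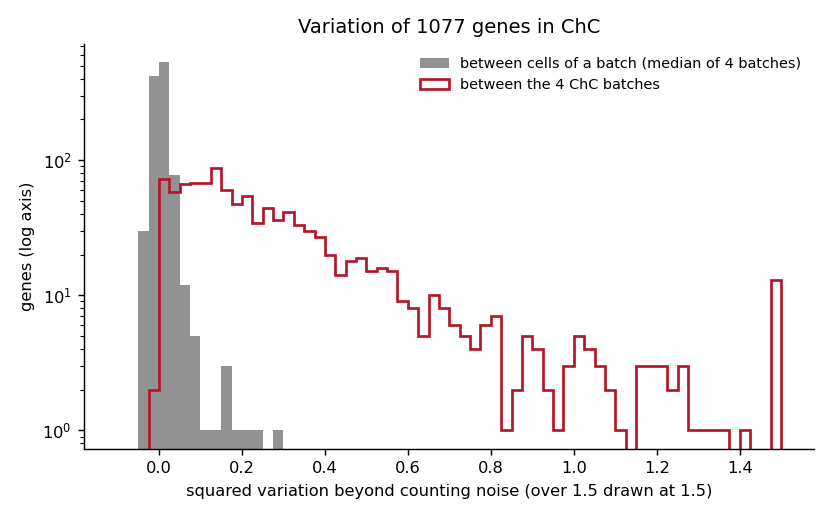
Number of genes (log axis) by squared variation beyond counting noise in ChC, for 1077 genes, between the cells of a batch in grey and between the 4 batches in red. The median is 0.00206 within batches and 0.203 between them.

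The label was set beside 6 marker genes of chandelier cells. This list was chosen with earlier results of these data known, so it describes the cells and is no independent check of the label. All 6 were found in every ChC batch: the general markers of GABAergic neurons of the medial ganglionic eminence at levels that overlapped with those of Pv cells, and Pthlh, Unc5b and Trib2 at levels far above those in Pv batches. Slc32a1, the transporter that loads GABA into vesicles, was at 1741, 3027, 1909.9 and 2057 CPM in ChC, and Gad1, which encodes a GABA-synthesizing enzyme, at 749, 658, 1636 and 1704 CPM. Nkx2-1 itself was low but even, at 66.5, 75.4, 59.99 and 77.5 CPM in ChC against 87.2, 33.5, 59.4 and 21.8 CPM in Pv. The ChC and Pv batches overlap for each of these general markers.

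Pthlh, which encodes the secreted parathyroid hormone-like hormone, was at 514, 197, 513 and 498 CPM in ChC batches and at 2.72, 0, 0 and 0 CPM in Pv batches. Batch 2 is the lowest of the ChC values, and the single Pv value rests on 1 UMI. Unc5b, a receptor for the guidance cue netrin, was at 243, 605, 758 and 405 CPM in ChC and 0, 0, 0 and 3.45 CPM in Pv, the last from 3 UMI. Trib2, a pseudokinase of the Tribbles family, was at 639, 366, 1189 and 355 CPM in ChC and had no UMI in any of the 63 Pv cells. The groups do not overlap for these 3 genes. The mean level of the ChC batches was 632 times that of the Pv batches for Pthlh and 583 times for Unc5b. Against the Pv UMI pooled over batches, where deep batches weigh more, it was 859 times as high for Pthlh (95% counting interval 154 to 33924) and 334 times for Unc5b (114 to 1622), and Trib2 was at least 424-fold higher in ChC, against a floor of 3 counts over the Pv group.

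In single cells, Pthlh was found in 58, Unc5b in 59 and Trib2 in 59 of 63 ChC cells, and all 3 together in 55 of 63. The 8 cells that lacked at least 1 of them held at most 6024 UMI. Among 63 Pv cells, 1 had Pthlh, 3 had Unc5b and 0 had Trib2. After thinning to 5000 UMI, 41, 49 and 47 of 55 ChC cells and 0 of 61 Pv cells had Pthlh, Unc5b and Trib2.

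**Figure D3:**
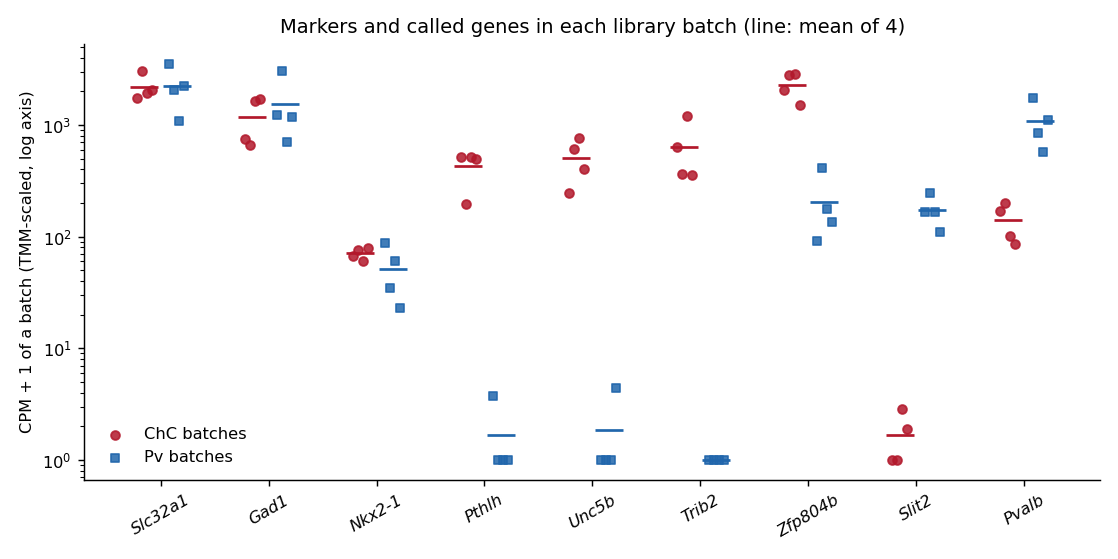
CPM + 1 (TMM-scaled, log axis) of 9 genes in each of 4 ChC batches (red circles) and 4 Pv batches (blue squares), with a line at each mean. Pthlh, Unc5b, Trib2 and Zfp804b lie higher in every ChC batch than in any Pv batch, and Slit2 and Pvalb lie lower.

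ChC were compared with Pv cells to ask which genes distinguish these interneurons from the other fast-spiking type. The genes past the threshold all had ChC and Pv batches apart. Trib2, Pthlh, Unc5b and Zfp804b were among those higher in ChC, and Slit2 was lower. Of 6283 genes tested, 5 were higher (0.0796%) and 1 was lower (0.0159%) at an adjusted p under 0.05 in edgeR's quasi-likelihood test of 4 batches against 4.

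Zfp804b, a zinc finger gene, was at 2047, 2774, 2857 and 1499.9 CPM in ChC and 89.9, 407, 176 and 134 CPM in Pv. It was abundant in all ChC batches and present at a lower level in all Pv batches (log2 fold change 3.51, standard error 0.56, adjusted p = 0.0178). Slit2, a secreted guidance protein that binds Robo receptors, was at 0, 0, 1.89 and 0.881 CPM in ChC and 166, 247, 165 and 108 CPM in Pv, so ChC nearly lacked it (log2 fold change -7.29, standard error 1.26, adjusted p = 0.0371).

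For the 3 given markers the fits gave an adjusted p of 0.00247 each, with log2 fold changes of 9.28 for Pthlh (standard error 1.20), 8.49 for Unc5b (1.11) and 12.06 for Trib2 (1.28), where near-empty Pv batches make the fitted values depend on the prior count. These markers were chosen with earlier results of these data known, so their p-values are no independent support for the label. In mm9 coordinates the genes named here are Trib2 (NM_144551, chromosome 12, 15798533 to 15823591, minus strand), Pthlh (NM_008970, chromosome 6, 147200632 to 147212607, minus strand), Unc5b (NM_029770, chromosome 10, 60225343 to 60294329, minus strand), Zfp804b (NM_001163223, chromosome 5, 6769030 to 7344378, minus strand, overlapped on the other strand by 4921511H03Rik) and Slit2 (NM_178804, chromosome 5, 48374394 to 48697017, plus strand).

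Unadjusted, 433 genes had a p under 0.05, of which 267 were higher and 166 lower in ChC, and the ChC and Pv batches did not overlap for 185 genes higher (2.94%) and 113 lower (1.8%). With UMI summed per animal, 2 against 2, edgeR called 0 genes in either direction (620 of 9681 at an unadjusted p under 0.05), and the 6 genes had adjusted p between 0.0679 and 0.594, while DESeq2 on batches called 49 higher and 33 lower, these 6 included. Slit2 lost its call without any 1 of the 8 batches (adjusted p 0.107 to 0.188), with no filter on low counts and with the transcripts of a gene summed, and Zfp804b without ChC batch 2 or 3 or Pv batch 5, 7 or 8, and with ChC batches 1 and 3 only (added once the values were known) the calls numbered 3, Pthlh and Trib2 among them.

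Beyond these, the genes with the 12 smallest p-values in each direction describe the profile, though those named next did not pass in edgeR on all UMI (with cells thinned to 5000 UMI, Thsd7a and Pvalb did). Thsd7a, a membrane protein with thrombospondin repeats, was at 2543, 1911, 1785 and 934 CPM in ChC and 389.5, 106, 211 and 237 CPM in Pv (adjusted p = 0.0640). Mctp2, a membrane protein with C2 domains, was at 575, 44.1, 138 and 195 CPM against 2.72, 5.15, 2.70 and 1.15 CPM (adjusted p = 0.0641). Every ChC batch exceeded every Pv batch for both, with the highest Mctp2 level in batch 1.

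Kit, the receptor tyrosine kinase for stem cell factor, was at 156, 40.5, 596 and 118 CPM in ChC and 0, 2.57, 8.10 and 2.30 CPM in Pv (adjusted p = 0.135). Cpeb2, which binds polyadenylation elements of messenger RNA, was at 291, 241, 145 and 54.6 CPM against 2.72, 7.72, 8.10 and 2.30 CPM (adjusted p = 0.155). M6pr, a receptor that sorts enzymes to lysosomes, was at 219.8, 68.1, 218 and 66.1 CPM against 0, 0, 5.40 and 3.45 CPM (adjusted p = 0.195). Kit was highest in batch 3, and the other pair of genes varied by several fold among ChC batches. Amy1, an amylase gene, was at 61.3, 180.2, 59.99 and 23.8 CPM in ChC and had no UMI in Pv cells, at least 54.1-fold higher against a floor of 3 counts over the Pv group (adjusted p = 0.135), with a mean ChC level of 81.3 CPM that falls to 48.4 CPM without batch 2. Tmed8 was at 76.7, 53.3, 66.4 and 39.6 CPM in ChC and rested on 2 UMI in Pv (58.9 times the level in the pooled Pv UMI, 95% counting interval 16.3 to 486, adjusted p = 0.156).

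On the lower side were genes that ChC nearly lacked and genes that ChC carried at a lower level. Nog, which encodes the BMP antagonist noggin, had 1 UMI in ChC, in batch 2, against 123, 317, 40.5 and 116 CPM in Pv batches (324-fold lower by the means of batches and 703-fold by the pooled ChC UMI, in which batch 3 weighs most, 95% counting interval of the latter 126 to 27773, adjusted p = 0.0641). Nefh, the heavy neurofilament subunit of large axons, had 2 UMI in ChC, in batch 1, against 59.9, 77.2, 159 and 221 CPM in Pv (101-fold lower by the means of batches and 305-fold by the pooled ChC UMI, interval of the latter 84.5 to 2520, adjusted p = 0.195). Car10, a carbonic anhydrase-related protein, was at 10.2, 16.6, 9.43 and 23.8 CPM in ChC and 452, 188, 327 and 143 CPM in Pv (adjusted p = 0.135). Of these 3 genes, only Car10 was found in every ChC batch.

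Pvalb, the calcium buffer of fast-spiking cells, was at 169, 200.5, 100.4 and 85.4 CPM in ChC, a description only, since its locus marked the Pv cells (1757, 847, 573 and 1115 CPM there, log2 fold change -2.95, adjusted p = 0.0860). It was found in 52 of 63 ChC cells. Hspa8, the constitutive heat shock protein that uncoats clathrin vesicles, was high in both, at 1191, 822, 1465 and 1222 CPM in ChC and 4900.2, 4412, 1604 and 3412 CPM in Pv (adjusted p = 0.288). Btbd11 was at 10.2, 80.9, 51.3 and 52.8 CPM in ChC and 232, 1357, 313 and 256 CPM in Pv. Mrps12, a protein of the mitochondrial ribosome, was at 0, 7.36, 4.15 and 9.69 CPM against 161, 304, 48.6 and 129 CPM, and Kazn at 12.8, 3.68, 23.8 and 3.52 CPM against 70.8, 803, 86.4 and 86.2 CPM. All lay lower in every ChC batch, as did 2410002I01Rik and Tmem183a, with adjusted p of 0.224 and 0.288. The remaining gene of the 12, Kcna2, is given with the potassium channels.

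The most abundant transcripts give the general character of a ChC. Because a UMI is meant to count a molecule whatever its length, levels of different genes were compared without division by length. Whether RNA primed inside long genes adds to their UMI was not tested. The 15 genes with the highest mean, of which a pair with the same counts was counted once, took 6.59, 7.61, 4.26 and 4.56% of the UMI of ChC batches 1 to 4. Tmsb4x, an actin-binding peptide, was at 14538, 10520.3, 8201 and 6161 CPM, and Rn45s, the ribosomal RNA precursor, at 16136, 17051, 1245 and 4761 CPM, higher than Tmsb4x in batches 1 and 2 and lower in the others. The imprinted noncoding RNA Meg3 was at 7936, 6038, 4762 and 4269 CPM, and Malat1, a nuclear noncoding RNA, was at 3796, 6812, 2177 and 1731 CPM. Camk1d, a kinase gene, moved with Rn45s, at 0.184 to 0.417 times its UMI in the 8 batches.

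Several of the 15 belong to synapses. Erbb4, the neuregulin receptor of cortical interneurons, was at 4468, 5777, 3875 and 4145 CPM in ChC against 1356, 1946, 1853 and 1934 CPM in Pv. Syt1, the calcium sensor of fast transmitter release, was at 3558, 3792, 3439 and 4142 CPM against 2901, 1969, 1664 and 1809 CPM. Cntnap2, an adhesion protein of axons, was at 3854, 3456, 2367 and 2042 CPM against 1057, 1068, 1194 and 1007 CPM. Every ChC batch exceeded every Pv batch for these 3, without passing the test (adjusted p = 0.241, 0.661 and 0.288).

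Gria1, an AMPA receptor subunit, was at 1355, 3860.5, 1832 and 2904 CPM in ChC and 877, 983, 319 and 909 CPM in Pv (adjusted p = 0.368), and Tcf4, a basic helix-loop-helix factor, at 3310.0, 2637, 2641 and 2545 CPM against 1942, 1514, 635 and 934 CPM (adjusted p = 0.599). Nrxn3, a presynaptic adhesion protein, lay between 890.4 CPM in batch 4 and 5222 CPM in batch 1. Of the 15, all ChC batches exceeded all Pv batches for 6 (the 5 genes given with Pv values and Zfp804b) and lay under them for 0, and 1, Zfp804b, passed. Of all tested genes, 2.94% were higher and 1.8% lower in this way. The 15 were picked for a high level in ChC, which favors ChC above Pv, so these counts are a description only. The others were Sash1, given with the variable genes, and Atp6v0c, a subunit of the vesicular proton pump at 2247, 3231, 2203 and 3534 CPM, with its pseudogene Atp6v0c-ps2, which has the same counts and so cannot be told apart from it.

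Gene lists for interneuron functions were then read in the same fit, each by its counts and median log2 fold change of ChC over Pv. The median of all 6283 genes tested was 0.02. No list member passed the test other than Pthlh, Unc5b, Trib2 and Slit2, so the lists describe levels. Members whose ChC and Pv batches did not overlap (apart) are named below because of their values, and their numbers stand beside 2.94% of all tested genes apart and higher and 1.8% apart and lower (chance gives 1.43% each for 4 against 4 independent samples).

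**Figure D4:**
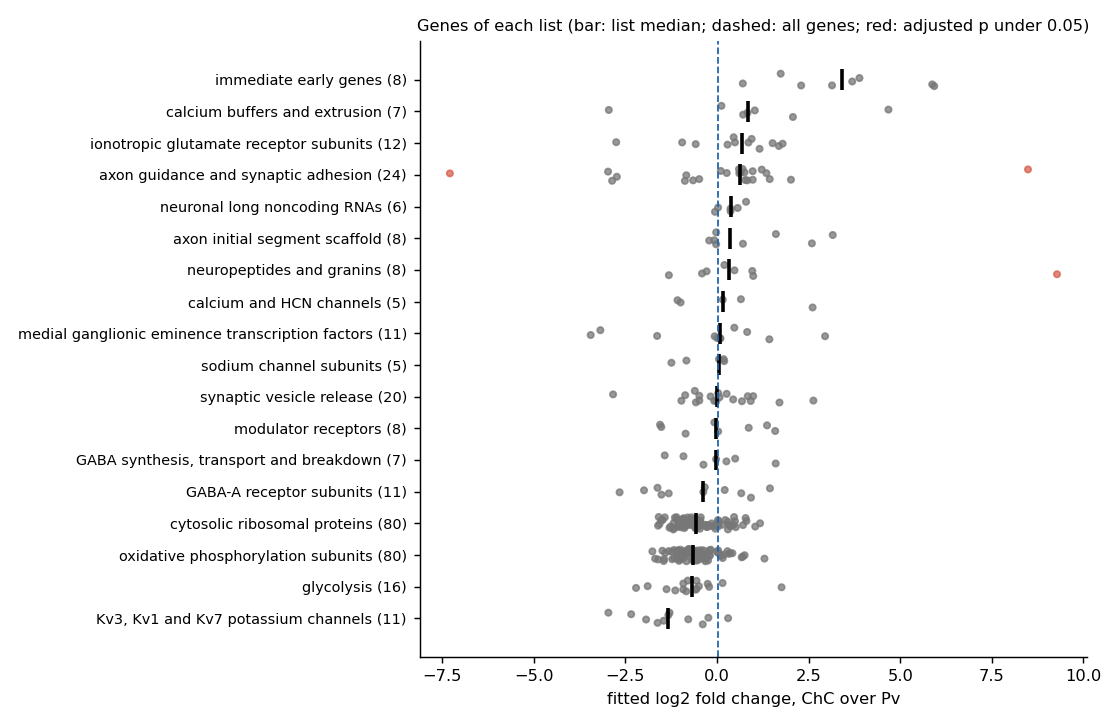
Fitted log2 fold change of ChC over Pv for each tested gene of the lists with at least 5 tested genes (number in brackets), without the list of ChC markers, with a bar at each list's median and a dashed line at that of all genes, 0.02. Of the lists shown, immediate early genes have the highest median, 3.41, and potassium channels the lowest, -1.33; genes with an adjusted p under 0.05 are in red.

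The genes of GABA synthesis, transport and breakdown had a median of -0.03 over 7 tested genes. Their summed level was 6104, 6213, 6375 and 6568 CPM in ChC, a narrow range next to 8517, 7864, 2782 and 5505 CPM in Pv. Gad2, the second GABA-synthesizing enzyme, was at 969, 881, 162 and 647 CPM in ChC and 528, 144, 45.9 and 157 CPM in Pv, with batch 3 low. The batches overlapped.

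Transcription factors of the medial ganglionic eminence had a median of 0.08 over 11 genes, with 0 apart and higher and 1 apart and lower. That 1 is Satb1, a chromatin organizer needed by somatostatin and parvalbumin interneurons, at 0, 114, 13.2 and 2.64 CPM in ChC and 128, 970.4, 116 and 194 CPM in Pv. Lhx6, the LIM factor that acts after Nkx2-1, was at 537, 93.8, 262 and 190.2 CPM in ChC, and Maf, another factor of the lineage, at 491, 9.20, 169 and 154 CPM. Mef2c was at 1359.8, 973, 1157 and 963 CPM and Sox6 at 164, 320.0, 426 and 31.7 CPM, and all 4 overlapped with Pv batches. Lhx8 was listed at 0 in ChC.

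Of the neuropeptides and granins, 8 were tested (median 0.34), and Pthlh was the 1 gene apart, on the higher side. Sst, Vip, Tac2, Penk, Pdyn, Crh and Adcyap1 were listed at 0 in ChC, while every ChC batch held the granins Chgb, at 693, 193, 298 and 194 CPM, and Scg2, at 432, 335, 361 and 216 CPM. Npy, which encodes neuropeptide Y and was chosen after its values were seen, was at 0, 80.9, 0.755 and 410.4 CPM in ChC and 0, 0, 0 and 510.3 CPM in Pv. It was nearly confined to ChC batches 2 and 4 and Pv batch 8.

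Calcium buffers and extrusion pumps had a median of 0.83 over 7 genes, with Pvalb the 1 apart on the lower side. The median was 0.38 with ChC batches 1 and 3 only, and 0.25 over the 4 genes tested after thinning. Calb1, which encodes calbindin and was also chosen after its values were seen, was at 0, 389.9, 1.13 and 182 CPM in ChC, that is in batches 2 and 4 of different animals. Calb2, which encodes calretinin, had 1 UMI in ChC, in batch 2. The exchanger Slc8a1 was at 284, 429, 395 and 210.5 CPM and the calcium pump Atp2b2 at 442, 379, 199.6 and 178 CPM in ChC. A related pump, Atp2b3, was at 654, 29.4, 21.1 and 7.93 CPM, nearly confined to batch 1 among the ChC batches, and Atp2b1 at 84.3, 206, 262 and 475 CPM.

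Potassium channels of the Kv3, Kv1 and Kv7 families, which allow fast spiking and set the threshold, had the lowest median of the lists with at least 5 tested genes, -1.33, with 10 of 11 tested members negative, and a median of -1.05 to -1.41 with the other scalings, summed transcripts, thinning, or ChC batches 1 and 3 only. Of these, 3 were apart and lower in ChC. Kcna2, the Kv1.2 subunit of axons, was at 25.6, 166, 49.4 and 91.6 CPM in ChC and 1073, 824, 327 and 374 CPM in Pv (adjusted p = 0.241). Kcnab2, a beta subunit that binds Kv1 channels, was at 28.1, 18.4, 110.2 and 75.7 CPM against 316, 378, 251 and 248 CPM (adjusted p = 0.552). Kcnab3 was at 0, 189, 101 and 56.4 CPM against 515, 311, 213 and 294 CPM. By contrast, Kcnc1, the Kv3.1 channel, was at 1035, 493, 379.6 and 414 CPM in ChC and 324, 376, 367 and 811 CPM in Pv, overlapping, as was Kcnc2 (Kv3.2), at 253, 263, 137 and 531 CPM against 267, 1411, 359 and 869 CPM. Kcnab1, another beta subunit, was at 414, 184, 510.1 and 102 CPM in ChC.

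Sodium channel subunits had a median of 0.05 over 5 genes, which became -0.02 without TMM, so no direction holds. Scn1a, the main sodium channel of fast-spiking interneurons, was at 810.2, 333, 558 and 128 CPM and Scn8a, the channel of axon initial segments, at 580.2, 381, 387 and 347 CPM in ChC. Scn2a1 was at 79.2, 118, 89.0 and 132 CPM and the beta subunit Scn2b at 161, 349, 179 and 178 CPM, and 0 of the tested members were apart. Scn4b was listed at 0 in ChC.

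Calcium and HCN channels had a median of 0.16 over 5 tested genes. Cacna1d, an L-type calcium channel, was the 1 tested gene apart, at 276, 204, 596 and 149.7 CPM in ChC and 32.7, 7.72, 103 and 57.5 CPM in Pv (adjusted p = 0.552). The T-type channel Cacna1g, which the low-count filter took out of the test, was at 58.8, 79.1, 259.6 and 16.7 CPM in ChC and 5.45, 5.15, 5.40 and 0 CPM in Pv. The P/Q-type channel gene Cacna1a was at 360.4, 377, 402 and 137 CPM in ChC, overlapping with Pv.

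Scaffold genes of the axon initial segment, the site that chandelier synapses address on other cells, had a median of 0.34 over 8 genes in the ChC themselves, with 0 apart. Ank3, the ankyrin that organizes the segment, was at 238, 675, 319 and 411 CPM in ChC and 359.5, 641, 505 and 400.0 CPM in Pv. Fgf12 and Fgf14, which bind sodium channels, were at 782, 619.8, 1118 and 536 CPM and 458, 412, 331 and 384 CPM in ChC, and the adhesion molecule Nrcam at 51.1, 257, 435 and 259 CPM. No member separated the cell types.

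GABA-A receptor subunits, which form the chloride channels of fast inhibition, had a median of -0.37 over 11 genes, with 1 apart in each direction. Gabrg3, a gamma subunit, was at 1071, 853, 671 and 673 CPM in ChC and 515, 551, 535 and 465 CPM in Pv (adjusted p = 0.825). Thus Gabrg3 was higher in every ChC batch than in any Pv batch. The beta subunit genes Gabrb1 and Gabrb2 had means of 200.4 and 195 CPM in ChC.

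Ionotropic glutamate receptor subunits had a median of 0.67 over 12 genes, with 2 apart and higher, 0 apart and lower, and 9 of 12 positive. Their summed level was 7119 ± 1072 CPM (SD, n = 4) in ChC and 3822 ± 666 CPM (SD, n = 4) in Pv. Gria4, an AMPA receptor subunit of fast-spiking cells, was at 1871, 1001, 2401 and 942 CPM in ChC and 793, 366, 294 and 717 CPM in Pv (adjusted p = 0.552), and Gria1 is the other gene apart. The NMDA receptor subunit Grin2b was at 1495, 752, 411 and 684 CPM and the kainate receptor subunit Grik2 at 662, 1227, 247 and 288 CPM in ChC, both overlapping with Pv.

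Receptors for modulators had a median of -0.02 over 8 tested genes, with Erbb4 the 1 apart. Tacr1, the receptor for substance P, was at 128, 9.20, 122 and 429 CPM in ChC and 0, 2.57, 0 and 1.15 CPM in Pv, apart but not tested because of the low-count filter. Grm5, a metabotropic glutamate receptor, was at 439.6, 1122, 299 and 318 CPM and the muscarinic receptor gene Chrm3 at 28.1, 631, 329 and 170.0 CPM in ChC. Chrm4, Chrna4, Htr1a and Adra1b were listed at 0 in ChC.

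Genes of vesicle release had a median of 0.01 over 20 genes, and their sum was 11578, 10279, 9034 and 9669 CPM in ChC and 10949.9, 10461, 6950.0 and 9889.9 CPM in Pv. Syt1 was the 1 apart. Cplx1, the complexin of fast synapses, was at 2658, 1755, 1658 and 976 CPM in ChC and 3029, 2304, 1777 and 3609 CPM in Pv, and the fusion protein gene Snap25 was at 1112, 1065, 867 and 706 CPM in ChC. The summed level was 10140.3 ± 1085 CPM (SD, n = 4) in ChC and 9563 ± 1795 CPM (SD, n = 4) in Pv, a difference within the spread of the batches.

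Genes of axon guidance and synaptic adhesion had a median of 0.62 over 24 genes, with 3 apart and higher (Unc5b, Unc5d and Cntnap2) and 2 apart and lower (Slit2 and Epha4). Unc5d, a second netrin receptor of the Unc5 family, was at 682, 241, 409.8 and 211 CPM in ChC and 98.1, 51.5, 194 and 37.9 CPM in Pv (adjusted p = 0.630). Epha4, a receptor for ephrins, was at 20.4, 16.6, 7.55 and 3.52 CPM against 209.7, 28.3, 97.2 and 36.8 CPM (adjusted p = 0.636). Cntn5, a contactin, was at 1899, 1032, 995 and 1285 CPM and the postsynaptic adhesion gene Nlgn1 at 892, 842, 359.9 and 889.5 CPM in ChC. The list's sum was 13409 ± 3489 CPM (SD, n = 4) in ChC and 7676 ± 2574 CPM (SD, n = 4) in Pv, and in ChC batches 1 and 3 only the median was 0.08.

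Perineuronal net genes, which encode the matrix coat of many parvalbumin cells, had a median of -0.82 over 4 tested genes, with 1 apart in each direction. Hapln4, a link protein, was at 2.56, 7.36, 17.4 and 0 CPM in ChC and 98.1, 69.5, 45.9 and 156 CPM in Pv (adjusted p = 0.560), whereas Tnr, the tenascin of nets, was at 225, 399, 356 and 418 CPM against 139, 51.5, 124 and 18.4 CPM (adjusted p = 0.605). Ncan, which encodes neurocan, was at 2.56, 20.2, 160.4 and 56.4 CPM in ChC. Hapln1 and Vcan had 352 and 272 CPM in batch 4 and at most 16.6 and 7.67 CPM in the other ChC batches.

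Immediate early genes, which neurons transcribe within minutes of strong activity or stress, had the highest median of the lists with at least 5 tested genes other than the markers of the cell type itself, 3.41, with 8 of 8 tested members positive with TMM, without it and with DESeq2's scaling, and 4 apart and higher. With ChC batches 1 and 3 only, or without batch 4, the AP-1 subunit gene Jun was negative. Egr1 had 0, 0, 5 and 1 UMI and Junb 0, 0, 2 and 0 UMI in Pv batches 5 to 8. Such members passed the low-count filter through their ChC batches, so the count of 8 and the median rest partly on them. With no filter 13 of 13 members were positive, and after thinning only 1 member was tested, also positive. The summed level of the list was 1978, 1012, 3724 and 3479.7 CPM in ChC and 572, 752, 251 and 180.4 CPM in Pv. Egr1, a zinc finger factor, was at 53.7, 241, 268 and 314 CPM in ChC and 0, 0, 13.5 and 1.15 CPM in Pv (adjusted p = 0.195). Junb, an AP-1 subunit, was at 66.5, 53.3, 69.0 and 119.8 CPM against 0, 0, 5.40 and 0 CPM (adjusted p = 0.241). Dusp1, a phosphatase of MAP kinases, was at 86.9, 123, 149 and 188 CPM against 0, 20.6, 0 and 14.9 CPM (adjusted p = 0.552), and Jund was the other gene apart. Fos varied widely, at 1672, 60.7, 2719 and 2074 CPM in ChC and 515, 687, 0 and 129 CPM in Pv, with batch 2 low among ChC. Egr4 was at 17.9, 254, 19.6 and 218 CPM in ChC, and Egr2, Egr3, Nr4a2, Nr4a3 and Atf3 were listed at 0. Cell type cannot be told apart here from mouse line and flow cell.

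Housekeeping lists had medians under that of all genes. Cytosolic ribosomal proteins had a median of -0.58 over 80 genes, with 0 apart and higher and 1 apart and lower (Rpl7l1), at a sum of 14832, 17923, 16122 and 33380.1 CPM in ChC and 47877, 26062, 18100.2 and 27583 CPM in Pv. Single members differed by batch, as with Rps3a, at 61.3, 785, 402 and 3271 CPM in ChC and 6328, 2783, 1777 and 1270.0 CPM in Pv. Oxidative phosphorylation subunits had a median of -0.65 over 80 genes, with 0 apart and higher and 5 of 80 apart and lower, against 1.8% of all tested genes (Atp5j, Cox5a, Cox6a1, Cox7a2l and Ndufa13). Their sum was narrow in ChC, at 22109, 18361, 21066 and 21276 CPM, against 40662, 35332, 17074 and 34790.1 CPM in Pv, where batch 7 lay under the ChC batches. Atp5a1, a subunit of the ATP synthase, was at 1367, 1297, 1479 and 843 CPM in ChC and 2672, 2461, 732 and 2091 CPM in Pv.

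Glycolysis genes had a median of -0.69 over 16 genes, with 14 of 16 negative and 0 apart. Eno2, the neuronal enolase, was at 662, 978, 2025 and 742 CPM in ChC and 1291, 2458, 951 and 2968 CPM in Pv, and Tpi1, triosephosphate isomerase, at 350.2, 526, 429 and 348 CPM against 1201, 1039.9, 413 and 987 CPM. Neuronal long noncoding RNAs had a median of 0.37 over 6 genes and 0 apart. Snhg11 was at 3563, 820.3, 2592 and 1311 CPM and the imprinted Rian at 447, 416, 172 and 144 CPM in ChC, overlapping with Pv.

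Markers of other cell types were read in the ChC batches as sums of lists. The list for interneurons of the caudal ganglionic eminence summed to 92.0, 92.0, 343 and 2491 CPM, in batch 4 mostly from Adarb2 and Reln, the latter the secreted protein reelin at 38.3, 27.6, 13.2 and 480.0 CPM. Of its 11 members in the table, 7 had UMI in ChC, and Vip, Sp8, Nr2f2 and Sncg were at 0. Cck, a neuropeptide of this class, was at 28.1, 36.8, 278 and 342 CPM, and the cannabinoid receptor gene Cnr1 at 24.9 CPM in batch 3 and 0 in the other ChC batches. Lamp5 and Ndnf are not in the table under these names.

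Pyramidal markers summed to 189, 945, 163 and 1037 CPM in ChC and 673, 664, 2309 and 594 CPM in Pv, the most abundant in ChC being Cux2. Slc17a7, the vesicular glutamate transporter, was at 0, 49.7, 0 and 85.4 CPM in ChC, Camk2a at 25.6, 252, 30.6 and 428 CPM and Nrgn at 28.1, 274, 25.3 and 312 CPM. Batches 2 and 4 thus carried more of them than batches 1 and 3, while Slc17a6, Neurod6, Tbr1, Emx1 and Fezf2 were at 0 in ChC. Calb1, Npy and Egr4 were also higher in batches 2 and 4 than in 1 and 3, and what part RNA of other cells has in that was not tested.

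Astrocyte markers summed to 48.6, 327, 249 and 872 CPM in ChC, led by the glutamate transporter Slc1a2 at 17.9, 188, 118 and 392 CPM, with Gfap and Fgfr3 at 0. Oligodendrocyte lineage markers summed to 17.9, 156, 81.9 and 113 CPM, led by Sox10 with 147 CPM in batch 2 and 0 elsewhere in ChC, with Mobp, Mag, Mal and Olig2 at 0. Microglia markers summed to 248, 20.2, 117 and 203 CPM, with C1qa and Tmem119 at 0. Vascular markers summed to 46, 62.5, 14.3 and 29.1 CPM, led by Tek, with Cldn5, Ly6c1, Rgs5, Pdgfrb, Vtn and Kcnj8 at 0. None of these lists was higher in all ChC than in all Pv batches.

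The genes higher in ChC spanned more of the genome. The median gene tested spanned 35.2 kb, those with an unadjusted p under 0.05 spanned 70.5 kb where higher (267) and 19.1 kb where lower in ChC (166), and the 185 genes apart and higher spanned 100.1 kb against 19.5 kb for the 113 apart and lower. The top 15 had a median of 318.6 kb, with 9 of 15 over 150 kb, such as Cntnap2 at 2241 kb and Erbb4 at 1068 kb. The deposited counts do not separate tags in exons from tags in introns, so a part of unspliced or internally primed RNA was not tested. Among the 3713 genes under 50 kb, a restriction added after the data were seen, edgeR called 2 higher (Pthlh and Trib2) and 0 lower; the other 4 called genes are longer and so were not in that test.

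The ChC of animals 1 and 2 were compared to ask how far the profile recurs between mice. Pthlh, Unc5b and Trib2 were found in both, and large gaps of single genes lay between batches of 1 animal, as with Tac1 (batch 2 against 1) and Adarb2 (batch 4 against 3). Gad1 was at 749 and 658 CPM in animal 1 and 1636 and 1704 CPM in animal 2 (log2 fold change 1.27, adjusted p = 0.715). Of 8228 genes tested in edgeR, 0 were higher (0%) and 0 lower (0%) in animal 2, with 590 at an unadjusted p under 0.05 (425 higher, 165 lower), and DESeq2 called 74 higher and 50 lower. Each side is 1 mouse with 2 library batches, so these p-values measure spread between libraries of a mouse, not between mice. Animal, age and lane coincide here, and 0 calls do not show that the profile recurs between mice. Without TMM the calls stayed at 0 and 0, and the median log2 fold change of all genes went from 0.06 to 0.19. With no filter on low counts edgeR called 4 higher and 11 lower.

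The number of genes detected per cell was compared at 5000 UMI, as it grows with depth. A ChC cell at that depth had a count on 2474, 2574, 2762 and 2683.5 genes in the median of batches 1 to 4, and a Pv cell on 2360.5, 2344, 2862 and 2694 genes in batches 5 to 8. The means were 2623 ± 126 genes (SD, n = 4) in ChC and 2565 ± 255 genes (SD, n = 4) in Pv, a difference of 58.3 genes that is smaller than the spread of either group (two-sided exact permutation test over batches, p = 0.657; the smallest p of this design is 0.0286). Without Pv batch 5 or 6 the difference became -9.96 or -15.5 genes. At 10000 UMI it was 0.25 genes (3739.12 against 3738.88, exact permutation p = 1), and without thinning 1240 genes (exact permutation p = 0.257), next to the deeper ChC batches. No paired analysis was possible because no batch, animal or lane held both cell types.

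Genes that varied most between the ChC cells of a batch were few. The highest median over batches was that of LOC100041346, at 0.284 of its squared level, followed by Hps5, which serves lysosome-related organelles, at 0.238, and Dse, an epimerase of dermatan sulfate, at 0.203. Vps8, of endosomal tethering, had 0.181, Pard3b, a polarity protein, 0.169, and Spag16, of the ciliary axoneme, 0.167. Batch 3, the deepest, had the lowest value of the 4 for LOC100041346, Hps5 and Dse.

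Lrrc17, at 0.153, and Fbxl13, at 0.149, overlap on opposite strands and had a ratio of counts of 0.897 to 0.998, so they cannot be told apart. Sash1, a scaffold protein, had 0.112 and Cdk8, a kinase of the Mediator complex, 0.0937. Sash1 was at 1940.0, 2698, 479 and 4519 CPM in ChC and 359.5, 124, 4699.9 and 932 CPM in Pv. Hps5 was at 532, 509, 104 and 895 CPM in ChC and 40.9, 43.8, 1039.9 and 136 CPM in Pv, low in the same ChC batch and high in the same Pv batch as Sash1. Dse, Vps8, Lrrc17 and Fbxl13, on the same batches, had this pattern too, at medians of 0.201, 0.0848, 0.385 and 0.388 times the UMI of Sash1. The pattern crosses cell types and animals, and its source was not tested.

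The least variable genes of the 1077 were Eepd1, Pvalb, Odz4, Mmp24 and Elf1, at -0.0479, -0.0425, -0.0378, -0.0377 and -0.0367, where a value under 0 means less spread than counting noise gives. Genes above 0.1 in a batch made up 6.64, 7.20, 3.57 and 7.36% of those with at least 50 UMI in ChC batches 1 to 4. Of the genes called against Pv, Pthlh had -0.0210, -0.0112, 3.64e-04 and 0.0152 in batches 1 to 4, estimates without an interval.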

How the data were processed

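The deposited values are counts of varietal tags (UMI) per transcript and cell, without normalization or log transform; the authors aligned poly(A)-primed reads to mm9 with Bowtie 0.12.7 and counted reads on a gene with the same tag once. The table has 27207 transcripts, 23335 gene names and 128 cells, of which 2 without counts were left out. Of 2121 genes with several counted transcripts, 1510 had transcripts equal in over 50% of cells, so the transcript with the most UMI stood for the gene in place of their sum, which became an alternative. The table holds no cell barcodes, and 0 pairs of cells had identical counts. No doublet caller was run on the hand-picked cells. Date-like names (25) were kept, and 47 names lie on more than 1 chromosome.

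UMI were summed per batch, filtered (filterByExpr), scaled by TMM (factors 0.873 to 1.17) and compared with edgeR 4.0.16 (glmQLFTest, Benjamini-Hochberg, threshold 0.05) in R 4.3.3; the biological coefficient of variation was 0.979. DESeq2 1.42.0, UMI per animal, no filter, no TMM, summed transcripts, cells thinned to 5000 UMI and leaving out each batch were alternatives. Intervals and floors cover counting error only. Genes detected were compared by exact permutation over batches. Variation between cells was a moment estimate given cell totals. Python 3.11.15, numpy 2.4.6, pandas 2.3.3, scipy 1.17.1 and matplotlib 3.10.9 were used, and the methods were tested on simulated data.

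Named are the 6 markers, the 15 highest mean levels, the 4 highest members of each of 26 lists and members past the threshold, the 12 largest folds past the threshold in each direction with batches apart (where fewer than 5 pass in a direction, the 12 smallest p-values; given here for both directions, since 5 and 1 passed), the 10 highest and 5 lowest variations, and the 5 largest folds past the threshold between animals (none passed). Not every gene that the rule names is described. List members with batches apart, Npy, Calb1 and Calb2 were added after their values were seen. Members and lists were chosen with earlier results of these data known. No reads and no sequences were used.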

Additional observations from a re-analysis of the deposited data

Results flagged for a closer look

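In 34 of 223 groups of 4 batches, 1 batch lay far from the other 3, that is with a gap to the nearest that took up most of the whole range. Chance does this in about 1 in 20 groups of independent, normally distributed values, but these levels are skewed, and a gene with counts in 1 batch only always meets the rule. The batches concerned were 2 and 4 (9 times each), 1, 3, 6 and 7 (3 each), and 5 and 8 (2 each). Genes of a batch share its library, so the groups are not independent, and no cause was tested.

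In ChC batch 4, the levels far above the other ChC batches were Adarb2 at 1669, Reln at 480.0, the matrix genes Hapln1 at 352 and Vcan at 272, and the microglia genes P2ry12 at 46.7 and Aif1 at 19.4 CPM. The list of caudal ganglionic eminence markers summed to 2491 and that of ribosomal proteins to 33380.1 CPM there. Cacna1a was far below the others, at 137 CPM.

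In ChC batch 2, Tac1 stood at 2163, Grm5 at 1122, Scn2b at 349, Sox10 at 147 and Satb1 at 114 CPM, above the rest, and Pthlh at 197 CPM, below. Receptors for modulators summed to 8363 CPM. Calb2 and Nog, at 1.84 CPM each, rest on 1 UMI.

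ChC batch 1 was high in Atp2b3 (654), Tcf4 (3310.0) and Nefh (5.11 CPM, 2 UMI). ChC batch 3 was high in Cnr1 (24.9) and the oligodendrocyte gene Cldn11 (23.8) and low in Nlgn1 (359.9 CPM).

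Among Pv batches, batch 6 was high in Btbd11 (1357), Satb1 (970.4) and Kazn (803 CPM). Batch 7 was high in Egr1 (13.5) and Junb (5.40) and low in Gria1 (319 CPM). Batch 5 had the 1 UMI of Pthlh (2.72) and the lowest Erbb4 (1356 CPM). Batch 8 had the UMI of Unc5b (3.45) and the highest 2410002I01Rik (58.6 CPM).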

How the results depend on the processing

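The count of genes higher in ChC than in Pv, 5, was 0 with UMI per animal, 49 with DESeq2, 3 with ChC batches 1 and 3 only and 2 among genes under 50 kb, both added after the data were seen; it was 5 with no filter, without TMM and with summed transcripts, 6 after thinning, Thsd7a being the added gene, and 4 to 5 without single batches. The count lower in ChC, 1, was 33 with DESeq2, 1 without TMM and, with Pvalb in place of Slit2, 1 after thinning. It was 0 with UMI per animal, no filter, summed transcripts, ChC batches 1 and 3 only and genes under 50 kb, and 0 to 0 without single batches. Between ChC animals, the counts of 0 higher and 0 lower became 74 and 50 with DESeq2 and 4 and 11 with no filter, and 0 to 4 and 0 to 9 without single batches, where 1 batch stands against 2 and only the other animal gives the spread. Apart from the span limit and the batch and animal sums, which leave fewer genes or samples, the cause was not tested.

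The difference in genes detected, 58.3, was 0.25 at 10000 UMI and 1240 without thinning, and ranged from -15.5 to 157 without single batches; it was negative without Pv batch 5 (-9.96) or 6 (-15.5). The median variation between cells was 0.00605 with summed transcripts against 0.00206; 4 of the 10 most variable genes were shared. Of the 131 named genes tested, the log2 fold change of 39 changed sign without at least 1 batch, all with batches overlapping and none past the threshold, such as Tac1 (0.99, from -5.56 to 1.69), Adarb2 (3.09, from -1.02 to 4.10) and Reln (1.00, from -1.38 to 2.00). All alternatives were followed only for the 46 that are markers, have the smallest p or have batches apart, a choice that largely fixes the sign; 2 changed sign: Gad1, from -0.56 to 0.20 without single batches (positive without Pv batch 6), and Slc32a1, from -0.24 to 0.29 without single batches and 0.0373 with no filter. Of 147 levels of named genes, 28 moved by over 1 SD with summed transcripts or thinning. Without 1 batch, 46 mean levels fell by over 1.5 times, as for Tac1, from 546 to 6.58 CPM without batch 2, and Adarb2, from 436 to 24.4 CPM without batch 4.

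Depth and replicates limit these data: 8 of 63 ChC cells held under 5000 UMI, a batch's deepest ChC cell gave 17.9 to 23.9% of its UMI, and 2 animals stand behind each cell type. Calls rest on batches, which share animals in pairs. Cell type, mouse line and flow cell cannot be told apart.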
